A study of Mus musculus with 6 samples.

Results

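Apolipoproteins are the proteins that hepatocytes package with lipid and secrete into the plasma. The 10 genes described here, *Apoa1*, *Apoa2*, *Apoa4*, *Apoa5*, *Apob*, *Apoc3*, *Apoe*, *Apoh*, *Apom* and *Apof*, were chosen by name, and each had exactly 1 probe set with a single gene symbol, so that all 10 were measured among the 19938 genes tested. Liver RNA came from 3 Lkb1KOlivad mice (KO) and 3 control mice (WT), all female in the sample labels, with 1 Affymetrix gene array per mouse. The KO mice carried floxed *Lkb1* alleles and a tamoxifen-inducible Cre under the hepatocyte-specific transthyretin promoter, on an FVB/N background, whereas the WT mice were littermates with the same floxed alleles and no Cre. According to the methods, tamoxifen (2 doses of 1.5 mg per mouse) was given at 8 to 12 weeks of age, and most animals, usually males, were studied 15 days later. The livers are stated to be from fasted mice, although the labels do not give the nutritional state.

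Very low density lipoproteins are built on apolipoprotein B and carry triglycerides out of the hepatocyte, and their breakdown and removal are controlled by apolipoproteins C-III, A-V and E. High density lipoproteins are built on apolipoproteins A-I and A-II and return cholesterol to the liver. The comparison of KO with WT liver addresses whether the transcripts of these secreted proteins were altered in hepatocytes without Lkb1.

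The targeted gene *Stk11*, which encodes Lkb1, had log2 RMA signals of 6.52 (B253), 6.42 (B304) and 6.48 (B305) in the KO mice, against 8.24 (B256), 8.13 (B267) and 7.96 (B302) in the WT mice, so that the groups did not overlap. Mice are given in this order throughout. RMA signals are background-corrected, normalized and summarized over the probes of a probe set, so that a difference of 1 is a 2-fold difference in signal. The log2 fold change of *Stk11* was -1.64 (standard error, SE, 0.12, adjusted p = 0.00705 from limma with Benjamini-Hochberg adjustment over all genes), and it was the only gene tested that passed (0.00502% of the genes). With 1 mouse left out the *Stk11* log2 fold change stayed between -1.71 and -1.57, with adjusted p from limma of 0.0168 without WT mouse B302 and of 0.0501 to 0.139 without any other mouse. The array medians lay between 5.03 and 5.08. The standard deviation of all signals was 2.09 in KO mouse B253 and 2.10 in WT mouse B256, against 2.02 to 2.05 in the other 4 arrays, so these 2 arrays, 1 of each genotype, had the widest spread of signals. The hepatocyte markers *Alb*, with signals of 12.42 to 12.86, and *Ttr*, with 12.31 to 12.60, were bright on all 6 arrays.

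None of the 10 apolipoprotein genes passed the test (0 higher and 0 lower, adjusted p = 0.9997 from limma for each), and none reached an unadjusted p under 0.05, a level that 1.52% of all genes reached as higher and 1.51% as lower. The methods' t-test also gave 0 members at an unadjusted p under 0.05. In no member did the 3 KO mice all lie above the 3 WT mice, which happened in 3.46% of all genes, or all below them, which happened in 3.7%. The log2 fold changes ran from -0.15 for *Apoa4* to 0.19 for *Apom*, 4 above and 6 below 0, with a median of -0.014, while the median over all genes was 0.0049 and 51.6% of them lay above 0. The median absolute log2 fold change was 0.063 for the 10 members and 0.089 for all genes.

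The 95% intervals show how large a difference could have gone unseen. The interval excluded a 2-fold difference in either direction for all 10 members and a 1.5-fold difference for 9 of them, the exception being *Apoa4*. The same limits were met by 97.9% and 82.5% of all genes. The narrowest interval was that of *Apoc3*, with a fold of 0.988 (0.833 to 1.17). With 3 mice against 3, the two-sided exact permutation test cannot give less than p = 0.1, and for the members it gave p = 0.2 to 1. A p above the threshold does not show that the mRNA levels were equal.

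**Figure D1:**
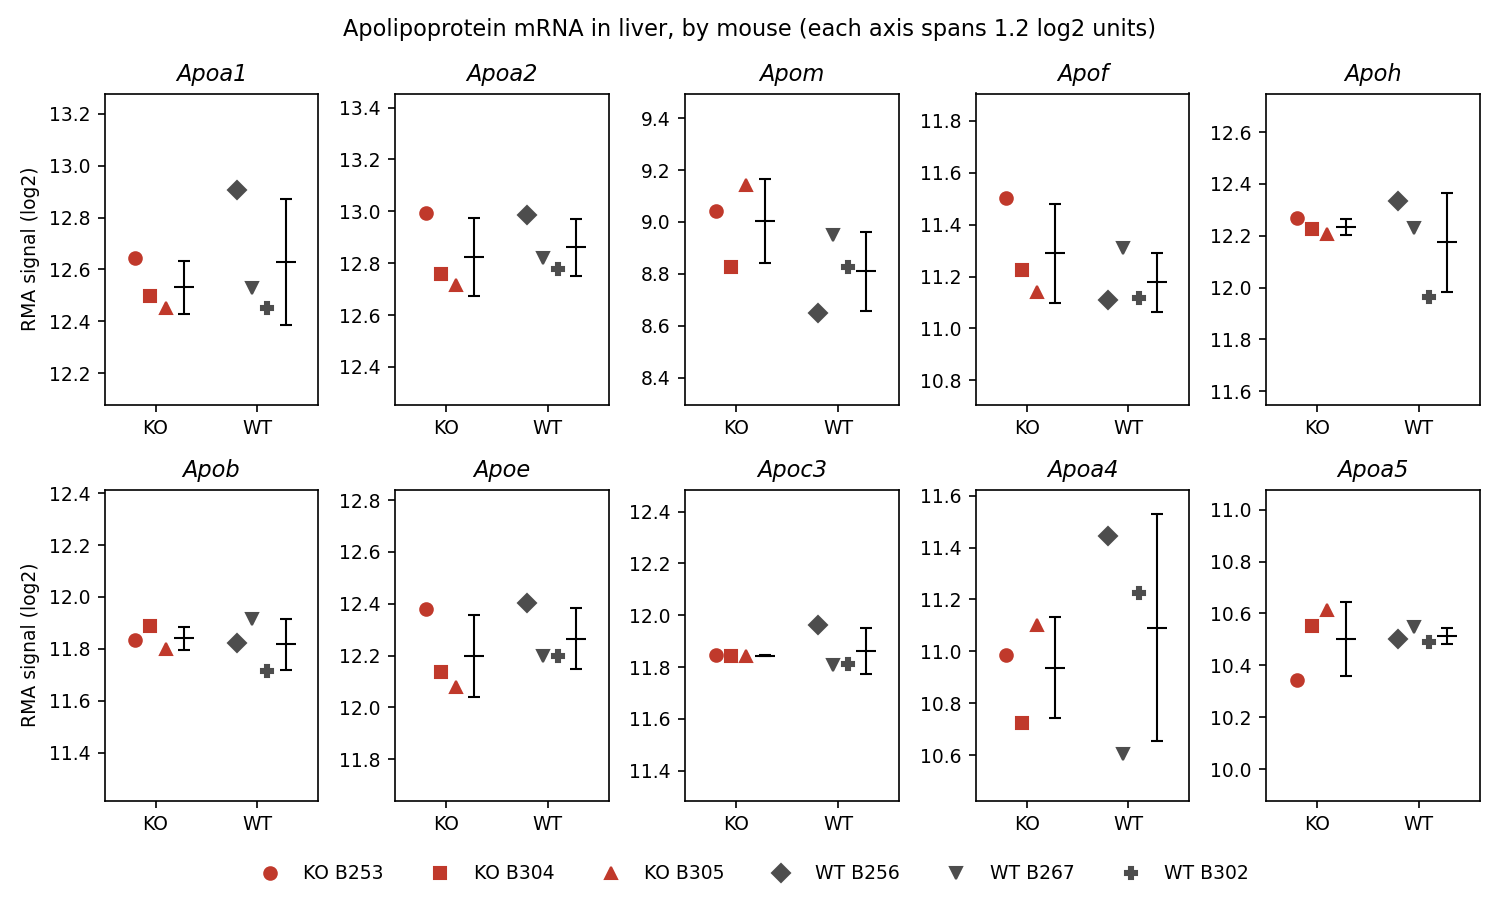
RMA signal (log2) of the 10 apolipoprotein genes in the liver of each mouse, KO in red and WT in grey, 1 symbol shape per mouse, beside a black bar for the group mean and its SD. In every panel the 2 groups overlap, and the widest scatter is that of *Apoa4*, whose WT mice lie between 10.60 and 11.44.

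Among the proteins of high density lipoproteins, *Apoa1* encodes apolipoprotein A-I, the scaffold of the particle and the activator of the cholesterol-esterifying enzyme Lcat. *Apoa1* (probe set 10585005) had log2 signals of 12.64, 12.50 and 12.45 in the KO mice, against 12.91, 12.53 and 12.45 in the WT mice. The KO mean was 12.5 ± 0.10 (SD, n = 3) and the WT mean 12.6 ± 0.24 (SD, n = 3), which gave a log2 fold change of -0.10 (SE 0.15, 95% interval -0.43 to 0.24, adjusted p = 0.9997 from limma). WT mouse B256 was the highest of all 6 and set the difference between the group means. Without it the log2 fold change was 0.042. *Apoa2* encodes apolipoprotein A-II, the second protein of these particles. Its signals (probe set 10351546) were 12.99, 12.76 and 12.71 in the KO mice and 12.99, 12.82 and 12.78 in the WT mice, and its log2 fold change was -0.038 (SE 0.13). KO mouse B253 was the highest here, just above WT mouse B256, and the other 2 KO mice lay below all WT mice.

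*Apom* encodes a lipocalin that rides on high density lipoproteins and carries sphingosine 1-phosphate. It had the highest log2 fold change of the 10 genes, at 0.19 (SE 0.13, 95% interval -0.11 to 0.50, unadjusted p = 0.184 and adjusted p = 0.9997 from limma). Its signals (probe set 10450444) were 9.04, 8.83 and 9.14 in the KO mice, against 8.65, 8.95 and 8.83 in the WT mice. KO mice B253 and B305 lay above all WT mice, whereas KO mouse B304 lay level with WT mouse B302 and below WT mouse B267 (two-sided exact permutation test, p = 0.2). The group means were 9.004 ± 0.16 in KO and 8.81 ± 0.15 in WT (SD, n = 3 each), a fold of 1.14 with a 95% interval of 0.925 to 1.41. Among the members, *Apom* alone kept its direction under all 16 alternative settings, with log2 fold changes of 0.095 to 0.28. Some of these settings cannot move a log2 fold change: the methods' t-test, for example, left it at 0.19.

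*Apof* encodes a plasma protein known in human to inhibit the transfer of lipid between lipoproteins. *Apof* (probe set 10367221) had signals of 11.50, 11.22 and 11.14 in the KO mice and of 11.11, 11.31 and 11.12 in the WT mice, with a log2 fold change of 0.11 (SE 0.13). The difference was carried by KO mouse B253, and without that mouse the log2 fold change was 0.0035. *Apoh* encodes beta-2-glycoprotein I, a plasma protein that binds anionic phospholipids. The 3 KO mice had closely placed *Apoh* signals (probe set 10382189) of 12.27, 12.23 and 12.21, all inside the range of the WT mice at 12.33, 12.23 and 11.96, and the log2 fold change was 0.059 (SE 0.13). The lowest value was that of WT mouse B302, without which the log2 fold change was -0.047.

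Of the genes that serve triglyceride-rich particles, *Apob* encodes the protein on which each very low density lipoprotein particle is built. *Apob* (probe set 10394394) had log2 signals of 11.84, 11.89 and 11.80 in the KO mice and of 11.82, 11.91 and 11.72 in the WT mice. Its log2 fold change was 0.023 (SE 0.11), the fold 1.02 with a 95% interval of 0.853 to 1.21, and all 3 KO mice lay within the WT range. *Apoe* encodes the ligand through which remnant particles are taken up by receptors of the low density lipoprotein receptor family. Its signals (probe set 10560624) were 12.38, 12.14 and 12.08 in the KO mice, against 12.40, 12.20 and 12.20 in the WT mice, with a log2 fold change of -0.067 (SE 0.13, 95% interval -0.36 to 0.23). KO mice B304 and B305 lay below all WT mice, while KO mouse B253 lay near the top of the WT range.

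*Apoe* is also made by macrophages and stellate cells, and fewer such cells and less RNA per cell cannot be told apart in whole liver. All 10 stellate markers had log2 fold changes below 0 (median -0.22, summed signals of 1618 to 2477 in KO and 2132 to 2611 in WT), as had 8 of the 10 macrophage markers (median -0.16, summed signals of 1762 to 2072 in KO and 1617 to 2658 in WT). Most of the stellate sum was *Dcn* (mean log2 signal 10.22 in KO and 10.54 in WT). None of these markers passed the test over all genes, and at an unadjusted p under 0.05 2 of the 10 stellate markers had a negative log2 fold change, where 1.51% of all genes did so. Their part in the *Apoe* values was not tested. Markers of sinusoidal endothelial cells also lay mostly below 0 (6 of 8, median -0.17), and the 9 measured hepatocyte markers had a median of 0.034.

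*Apoc3* encodes apolipoprotein C-III, which slows the breakdown of triglyceride-rich particles. The 3 KO mice had nearly identical *Apoc3* signals (probe set 10593169) of 11.84 each, with an SD of 0.0015, and lay within the range of the WT mice at 11.96, 11.81 and 11.81. The log2 fold change was -0.017 (SE 0.11, adjusted p = 0.9997 from limma). *Apoa5* encodes apolipoprotein A-V, a low-abundance plasma protein that promotes triglyceride clearance. Its signals (probe set 10585015) were 10.34, 10.55 and 10.61 in the KO mice, against 10.50, 10.55 and 10.49 in the WT mice. KO mouse B253 lay below the WT mice and the other 2 KO mice above them, so that the group means were 10.50 ± 0.14 in KO and 10.51 ± 0.031 in WT (SD, n = 3 each) and the log2 fold change was -0.011 (SE 0.12).

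*Apoa4* encodes apolipoprotein A-IV, made mainly in the intestine and in mice also in the liver. It varied most of the 10 between mice, over 0.84 on the log2 scale. Its signals (probe set 10585010) were 10.99, 10.72 and 11.10 in the KO mice, against 11.44, 10.60 and 11.23 in the WT mice. All 3 KO mice lay within the WT range, whose ends were WT mice B256 and B267. The group means were 10.9 ± 0.19 in KO and 11.1 ± 0.44 in WT (SD, n = 3 each), with a log2 fold change of -0.15 (SE 0.21, 95% interval -0.64 to 0.33). Leaving out WT mouse B267 gave -0.40 (unadjusted p = 0.0387, adjusted p = 0.9991 from limma), and leaving out WT mouse B256 gave 0.022. Of 4 intestinal markers 3 were measured, with log2 fold changes of 0.026 to 0.099 and summed signals of 2919 to 3516 in KO and 2310 to 3480 in WT. Nearly all of the sum was *Fabp2* (mean log2 signal 11.62 in KO and 11.52 in WT), while *Vil1* (3.90 in KO and 3.88 in WT) and *Lct* (4.61 in KO and 4.54 in WT) were dim. Both lay below the array medians of 5.03 to 5.08, so the sum describes *Fabp2* rather than the 3 markers together. Their part in the *Apoa4* values was not tested. The 5 genes whose values, each relative to its WT mean, lay closest to those of *Apoa4* over the 6 arrays were *Cdc25a*, *Tinagl1*, *Tmem41a*, *Gm12474* and *Mt1*, with root mean square differences of 0.083 to 0.099 on the log2 scale. With so many genes and 6 arrays, likeness of this kind is a description only.

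*Apoa1*, *Apoc3*, *Apoa4* and *Apoa5* are neighbours on chromosome 9 in the RefSeq annotation of GRCm38.p6. The bases before the annotated start are shown for *Apoa1* and *Apoa4*, the neighbours with the most negative log2 fold changes, and for *Apom*, the gene with the most positive one. Each is the 250 bases before the start, 5′ to 3′ on the strand of the gene, from RefSeq (GRCm38.p6), at chr9:46228380-46228629 (+), chr9:46240594-46240843 (+) and chr17:35131802-35132051 (-). Capitals mark matches on either strand to CAAAGTNCA, a form of the site of the hepatocyte factor Hnf4, to GNTCAAGG, letters that recur in the *Apoa1* window, or to TATAA, all chosen after these sequences had been read.
Apoa1: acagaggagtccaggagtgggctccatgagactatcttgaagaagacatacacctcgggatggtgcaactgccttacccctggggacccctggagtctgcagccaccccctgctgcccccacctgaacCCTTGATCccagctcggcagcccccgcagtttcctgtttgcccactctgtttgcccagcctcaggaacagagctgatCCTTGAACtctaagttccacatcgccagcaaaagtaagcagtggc
Apoa4: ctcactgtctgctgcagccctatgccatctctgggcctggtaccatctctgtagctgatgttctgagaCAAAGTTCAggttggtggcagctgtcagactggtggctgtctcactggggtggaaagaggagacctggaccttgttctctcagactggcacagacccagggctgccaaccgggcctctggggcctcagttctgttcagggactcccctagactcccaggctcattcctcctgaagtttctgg
Apom: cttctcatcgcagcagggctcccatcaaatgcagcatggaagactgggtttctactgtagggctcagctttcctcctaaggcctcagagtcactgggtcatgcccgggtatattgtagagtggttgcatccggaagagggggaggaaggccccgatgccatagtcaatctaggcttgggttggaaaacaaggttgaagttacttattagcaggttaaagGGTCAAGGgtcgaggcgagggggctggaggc

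CAAAGTNCA was found in the *Apoa4* window and in 1.19% of the 32817 mouse windows of the same length, GNTCAAGG in the windows of *Apoa1* (2 matches) and *Apom* (1 match) and in 3.62% of all, and TATAA in none of these 3 and in 22.8% of all. A match is a description of letters, not of a bound factor. The 2 *Apoa1* matches were fixed in advance, because GNTCAAGG was chosen as letters that recur in that window. The matches in *Apoa4* and *Apom* are not a test either, because all the patterns were chosen after reading these windows. *Hnf4a*, whose product activates many of these genes in hepatocytes, had a log2 fold change of 0.021 (SE 0.19).

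**Figure D2:**
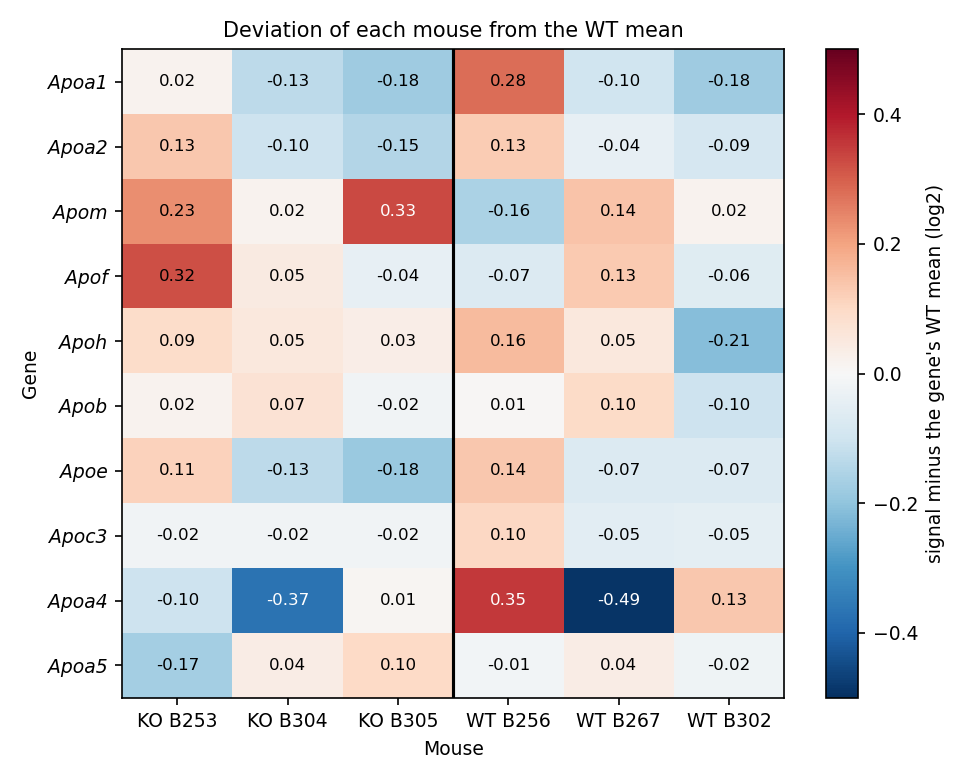
Log2 signal of each of the 10 apolipoprotein genes (rows) in each mouse (columns, KO left of the line and WT right of it), minus the mean of the WT mice for that gene. *Apoa4* shows the widest spread, at 0.35 in WT mouse B256 and -0.49 in WT mouse B267.

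In each of the 10 genes the range within at least 1 genotype was larger than the difference between the genotype means. How many of all genes had such a range was not counted. In 5 of the 10 genes (*Apoa1*, *Apoa2*, *Apoc3*, *Apoe* and *Apoh*) the 2 highest values belonged to KO mouse B253 and WT mouse B256, whose arrays also had the widest spread of signals. The share of all genes with this ordering was not counted. Averaged over the 10 genes relative to the WT means, the mice lay at 0.064 (B253), -0.053 (B304) and -0.011 (B305) in KO, and at 0.092 (B256), -0.029 (B267) and -0.063 (B302) in WT. The 9 hepatocyte markers lay at 0.15, 0.026 and -0.034 in the same KO mice and at 0.22, -0.032 and -0.18 in the same WT mice. B253 and B256 were again the highest. The part of the array spread in these values was not tested. Without mice B253 and B256, an alternative chosen after seeing the data, the median over the 10 genes was 0.013, against -0.014 with all mice. The mouse numbers form a run in the two-hundreds (KO B253, WT B256 and B267) and a run in the three-hundreds (KO B304 and B305, WT B302). Within these runs 7 of the 10 genes had log2 fold changes of opposite sign, and with the run as a block no gene of the 10 passed (lowest adjusted p = 0.968 from limma). How many of all genes had opposite signs in the runs was not counted.

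Of 19 further genes with apolipoprotein in their name or known for lipoprotein-bound proteins, 15 were measured, and 0 passed in either direction (median log2 fold change 0.046, 11 above 0). At an unadjusted p under 0.05 the count was also 0. *Apon*, the neighbour of *Apof* on chromosome 10, had signals of 11.11, 10.65 and 10.62 in the KO mice and of 10.32, 10.61 and 10.46 in the WT mice. All 3 KO values lay above the WT values, KO mouse B305 narrowly, and the log2 fold change was 0.33 (SE 0.16, unadjusted p = 0.0709 and adjusted p = 0.9997 from limma). *Apol10b*, of the apolipoprotein L family, also had all KO values above the WT values, at dim signals of 2.84 to 3.32, with a log2 fold change of 0.20 (SE 0.12). Several others of this list were also dim, with group means below the array medians of 5.03 to 5.08. *Pon3*, a paraoxonase bound to high density lipoproteins, had a log2 fold change of -0.13 (SE 0.12). *Apoc1* and *Apoc4*, neighbours of *Apoe* on chromosome 7, had log2 fold changes of 0.046 (SE 0.11) and 0.0024 (SE 0.17). *Apoc2*, which shares its probe set with another gene name, was not analysed here.

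**Figure D3:**
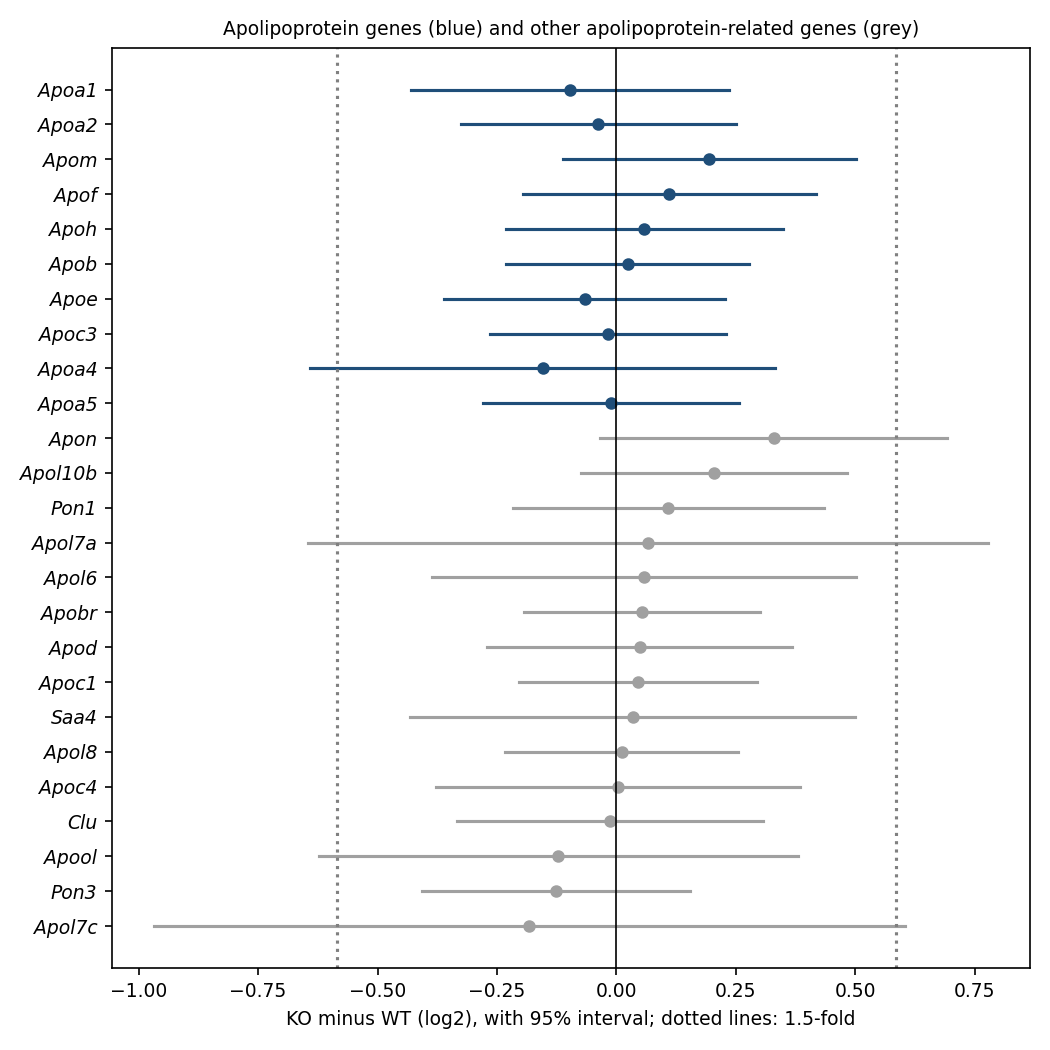
Log2 fold change of KO over WT liver with its 95% interval for the 10 apolipoprotein genes (blue) and 15 further genes with apolipoprotein in their name or known for lipoprotein-bound proteins (grey), with dotted lines at a 1.5-fold difference. All 10 blue intervals hold 0, and the interval of *Apoa4* alone among them crosses a dotted line.

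Around the particle proteins, the genes for lipoprotein assembly and secretion were also compared, of which 24 of 25 were measured and 0 passed (median log2 fold change -0.020, 12 above 0, from -0.64 to 0.42). At an unadjusted p under 0.05 in limma, 1 had a positive and 2 a negative log2 fold change, where 1.52% and 1.51% of all genes did so. In the methods' t-test *Sort1* alone of these 3 stayed under 0.05 (unadjusted p = 0.0459, against 0.091 for *Apobec1* and 0.129 for *Aadac*). *Sort1*, which encodes sortilin, a sorting receptor for apolipoprotein B, had log2 signals of 4.89, 4.72 and 4.67 in KO and of 5.28, 4.92 and 5.14 in WT, with a log2 fold change of -0.35 (SE 0.13, unadjusted p = 0.0269 from limma). These signals were dim, near the array medians of 5.03 to 5.08. *Apobec1*, which edits the *Apob* transcript to the form that yields apolipoprotein B-48, had signals of 6.76, 6.49 and 6.62 in KO and of 6.88, 7.35 and 6.84 in WT, with a log2 fold change of -0.40 (SE 0.16, unadjusted p = 0.0345). In both genes the 3 KO mice lay below the 3 WT mice, as in 3.7% of all genes. In 2 other genes of the list the 3 KO mice lay above the 3 WT mice, as in 3.46% of all genes: *Tm6sf2*, which acts in lipid loading of very low density lipoproteins (log2 fold change 0.36, SE 0.17), and *Pdia3*, a protein disulphide isomerase (log2 fold change 0.23, SE 0.12). *Aadac*, a lipase of the endoplasmic reticulum, had a log2 fold change of 0.42 (SE 0.18, unadjusted p = 0.0475), and its groups overlapped. The adjusted p from limma was 0.9997 for each of these 3 genes. *Mttp*, whose product loads lipid onto apolipoprotein B, had a log2 fold change of -0.10 (SE 0.14).

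Of the genes for remodelling in plasma, 15 of 17 were measured and 0 passed (median -0.030, 5 above 0), with 0 at an unadjusted p under 0.05. The smallest p values were those of *Gpihbp1*, the anchor of lipoprotein lipase on capillaries, at -0.19 (SE 0.14), *Angptl8*, an inhibitor of that lipase, at 0.22 (SE 0.16), and *Lipg*, the endothelial lipase, at -0.19 (SE 0.17). Of the genes for uptake, 15 of 18 were measured and 0 passed (median 0.013, 9 above 0), and 1 reached an unadjusted p under 0.05 in limma with a positive log2 fold change, as 1.52% of all genes did, and 0 did in the methods' t-test. *Sdc1*, a heparan sulphate proteoglycan that binds remnant particles, had signals of 7.59, 6.96 and 7.24 in KO and of 7.03, 6.67 and 6.80 in WT, with a log2 fold change of 0.43 (SE 0.18, unadjusted p = 0.0371 and adjusted p = 0.9997 from limma), and WT mouse B256 lay above KO mouse B304. *Mylip*, which targets the low density lipoprotein receptor for degradation, had a log2 fold change of -0.21 (SE 0.14), and *Sorl1*, a sorting receptor, one of 0.19 (SE 0.12) with all KO mice above all WT mice.

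The regulators of apolipoprotein transcription, 22 of 24 measured, had a median log2 fold change of 0.039 with 14 above 0, and 0 passed. No gene of this list reached an unadjusted p under 0.05 in limma, and 1, *Foxa2*, did in the methods' t-test, for which the share of all genes was not counted. *Foxa2*, a forkhead factor of hepatocytes, had signals of 6.04, 6.07 and 6.18 in KO, all below those of 6.34, 6.36 and 6.32 in WT (log2 fold change -0.24, SE 0.11, unadjusted p = 0.0508 from limma and 0.00588 from the methods' t-test, adjusted p = 0.9997 from limma). The SD of its signals was 0.076 in KO and 0.020 in WT. *Ppargc1a*, a coactivator of the fasting response, had 2 probe sets, and the values of the dimmer one are not given here. The brighter one had signals of 8.24, 9.23 and 9.24 in the KO mice, against 8.33, 8.22 and 8.48 in the WT mice. KO mice B304 and B305 stood above all WT mice and KO mouse B253 within the WT range (log2 fold change 0.56, SE 0.25, unadjusted p = 0.055). *Cebpa*, a factor of hepatocyte differentiation, had a log2 fold change of -0.31 (SE 0.17). *Creb3l3*, a membrane-bound factor that activates *Apoa4* and *Apoa5* in mouse liver, had one of 0.0052 (SE 0.15), and *Ppara*, the receptor that drives fatty acid oxidation in fasting, one of 0.13 (SE 0.20).

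**Figure D4:**
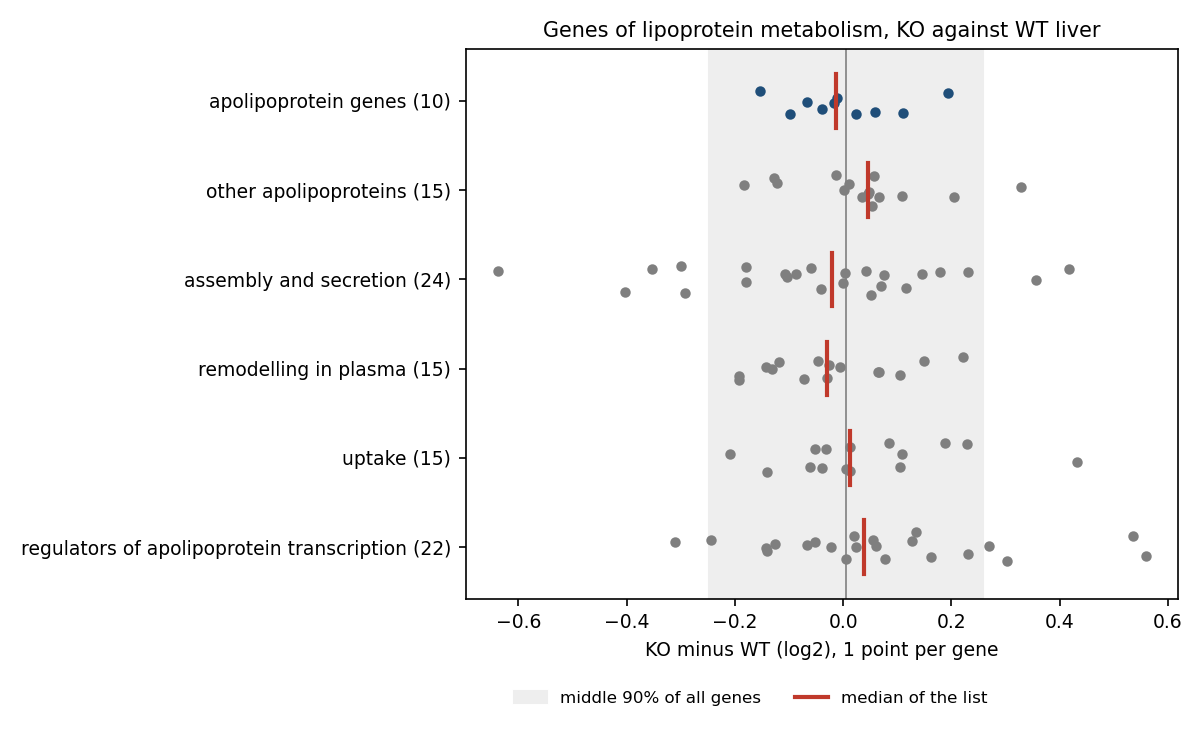
Log2 fold change of KO over WT for each measured gene of the 10 apolipoprotein genes and of the 5 other lists of lipoprotein metabolism, with the number measured in brackets, the median of each list in red, the median of all genes as a thin line and the 5th to the 95th percentile of all genes as a grey band from -0.25 to 0.26. All 10 apolipoprotein genes lie inside the band, and the list medians lie between -0.030 and 0.046.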

How the data were processed

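The deposited values were log2 RMA signals of 6 arrays, which the authors made by background correction, normalization between arrays and summary over probes (RMA and Partek per the labels, Expression Console and BRB-ArrayTools per the methods, with versions not given in the sources used here). They were used as deposited. Probe sets were named from an annotation of an earlier array generation than the one in the methods: of 35556 probe sets, 21789 had 1 symbol, 1621 several and 12146 none. Symbols were updated through gene identifiers (21698 found). The brightest probe set was kept for the 999 genes with several, which gave 19938 genes, with no filter on intensity.

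KO was compared with WT by moderated two-sided tests without covariates (limma 3.58.1, R 4.3.3), adjusted by Benjamini-Hochberg over all genes at a threshold of 0.05, after a check on simulated data. Figures used matplotlib 3.10.9. Precision is limited by the number of arrays, and as each array is 1 mouse, p-values measure the spread between mice. The members and lists were chosen with earlier results of these data known. The text names the members, *Stk11*, for each pathway list the 3 lowest unadjusted p and any under 0.05, and the 5 genes most like the widest ranging member. *Alb*, *Ttr*, *Apoc1*, *Apoc2*, *Apoc4*, *Mttp*, *Hnf4a*, *Creb3l3*, *Ppara*, *Tm6sf2*, *Pdia3*, *Dcn*, *Fabp2*, *Vil1* and *Lct* were added after their values were seen. The alternatives were quantile normalization, centring, a filter on dim genes, the mean of probe sets, array weights, robust estimation with an intensity trend, the t-test of the methods, the run of mouse numbers as a block, all named probe sets, and leaving out each mouse. Protein measurements were not analysed here.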

Additional observations from a re-analysis of the deposited data

Results flagged for a closer look

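*Apoa2* and *Apoa5* were picked out because every KO mouse lay on one side of every WT mouse within each run of mouse numbers, in opposite directions. *Apoa2* had a log2 fold change of 0.091 in the two-hundreds and of -0.039 in the three-hundreds, and *Apoa5* had one of -0.18 in the two-hundreds and of 0.092 in the three-hundreds. The interaction of genotype and run did not pass for either (adjusted p = 0.97 for *Apoa2* and 0.91 for *Apoa5* from limma). Each run holds 3 mice, so 1 mouse stands for KO in the two-hundreds (B253) and 1 for WT in the three-hundreds (B302). Within a run the groups separate whenever that 1 mouse is the highest or the lowest of its run. The share of all genes with this pattern was not counted.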

How the results depend on the processing

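No member passed at an adjusted p of 0.05 in any of its 16 alternative settings (lowest adjusted p = 0.968 from limma), and an unadjusted p under 0.05 was reached once, by *Apoa4* without WT mouse B267. Of 160 member values, 17 changed sign, all within 0.07 of 0. Some settings cannot move a member's log2 fold change and so could not change its sign. They were the dim filter, the mean of probe sets, the intensity trend, the methods' t-test and mice B253 and B256 as a block. With array weights *Apoa5* was at 0.0023 and *Apob* at -0.00017, and with the run of mouse numbers as a block *Apoa2* was at 0.026. Without mice B253 and B256 (chosen after seeing the data) *Apoa5* was at 0.063, *Apoc3* at 0.033, *Apof* at -0.031 and the further apolipoproteins at a median of -0.084. Leaving out 1 mouse gave ranges of -0.19 to 0.042 for *Apoa1*, -0.12 to 0.024 for *Apoa2*, -0.40 to 0.022 for *Apoa4*, -0.067 to 0.069 for *Apoa5*, -0.028 to 0.072 for *Apob*, -0.044 to 0.034 for *Apoc3*, -0.16 to 0.0013 for *Apoe*, and -0.047 to 0.14 for *Apoh*. The count of members above 0 was 2 without WT mouse B302 and 9 without WT mouse B256. The uptake list had a median of 0.15 with the run as a block. The genes called over all genes numbered 0 to 1 when 1 mouse was left out (1 only without WT mouse B302, so the call of *Stk11* was lost without any other mouse, although its log2 fold change stayed between -1.71 and -1.57), 0 in the methods' t-test and without B253 and B256, and 2 with those 2 mice as a block, also chosen after seeing the data. The cause of these changes was not tested. No paired analysis was possible because the labels give the mice no replicate numbers shared between groups.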
